A study of Mus musculus with 6 samples.

Results

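The genes described here are the ribosomal protein pseudogenes that gave counts in endothelial cells (ECs) of the embryonic mouse heart. They were selected on measured values: a gene had to carry a symbol of the form *Rpl* or *Rps* followed by a pseudogene suffix, be annotated as a pseudogene, and reach 10 counts or more in 2 or more of the 6 libraries. The count table named 314 such pseudogenes among its 55416 genes, and 73 of them, the copies of 40 parent genes, met the count rule; 16296 genes of any kind met it. A further 8 genes had a symbol of this form but were annotated as another type and were left out. ECs were sorted for mGFP from ventricles at embryonic day E15.5, about 8000 cells per library. ControlΔEC embryos were Pdgfb(CreERT2/+); Wt1(+/+); R26(mTmG/+), Wt1KOΔEC embryos carried Wt1(loxP/loxP) in place of Wt1(+/+), and there were 3 libraries of each. Both genotypes therefore carried the *Pdgfb*-driven Cre, which is active in ECs, together with the mTmG reporter, and the dams of both received tamoxifen by gavage (75 mg/kg, E11.5-13.5).

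A ribosomal protein gene encodes a subunit protein of the cytoplasmic ribosome, and is among the most highly transcribed genes in dividing tissue. Its mRNA is a frequent template for LINE-1 reverse transcriptase, so that mammalian genomes carry many intron-less copies, called processed pseudogenes, that were pasted at unrelated places and mostly lack a promoter of their own. A short read from such a copy can have the same bases as a read from the parent mRNA, and a counting program must then divide it between them. Each pseudogene is for that reason given here beside its parent.

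The libraries held between 26037324 and 44779020 counts, so that 3 counts, taken as the floor of detection, corresponded to between 0.0608 and 0.119 CPM (counts scaled to a common library total, with a TMM factor). Floors cover counting error only, because these amplified reads carry no molecular identifiers. *Wt1* itself lay between 110 and 149 CPM in ControlΔEC and at no more than 21.3 CPM in Wt1KOΔEC. A list of 6 endothelial markers summed to between 4233 and 5360 CPM in ControlΔEC and to between 4237 and 4951 CPM in Wt1KOΔEC. Other cell types left smaller signals, and no marker was at 0 in any library. The sums of 3 fibroblast markers were 281 to 415 CPM in ControlΔEC against 455 to 604 CPM in Wt1KOΔEC, those of 3 epicardial markers 1.98 to 6.15 CPM against 8.57 to 17.4 CPM, those of 3 mural markers 76.2 to 246 CPM against 47.5 to 56.7 CPM and those of 3 macrophage markers 150 to 476 CPM against 91.3 to 132 CPM, all without overlap. Within the fibroblast list *Postn* had a lower mean in Wt1KOΔEC (217 against 242 CPM), while *Col1a1* (290 against 114 CPM) and *Pdgfra* (20.6 against 11.1 CPM) were higher. Within the epicardial list *Dmkn* was lower (0.286 against 0.363 CPM), while *Upk3b* (9.05 against 2.03 CPM) and *Upk1b* (3.51 against 1.46 CPM) were higher. The sums of 4 cardiomyocyte and 3 erythroid markers overlapped, at 94.4 to 130 CPM against 70.2 to 170 CPM and at 89.5 to 274 CPM against 155 to 264 CPM. Within the erythroid list, *Hbb-y* was at 27.7, 43.5 and 7.39 CPM against 183, 102 and 184 CPM and *Alas2* at 109, 228 and 80.4 CPM against 62.2, 51.6 and 74.9 CPM, in opposite directions and each without overlap. *Rn18s*, the 18S ribosomal RNA, took between 13.2% and 15.3% of the counts in ControlΔEC and between 21.1% and 26.5% in Wt1KOΔEC, while mitochondrially encoded genes took 5.21% to 6.61% and 1.68% to 4.57%. The part in the results below of the signals that did not overlap between genotypes was not tested. In such sorted pools, fewer cells of a type and less RNA per cell cannot be told apart.

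The bases that set a copy apart from its parent are few. They are shown for the 3 pseudogenes on which the comparison between genotypes turned and for the copies of *Rpl15*, as stretches of 61 bases read 5′ to 3′ on the gene's own strand (GENCODE vM39 on GRCm39). Capitals mark the bases that differ between pseudogene and parent. Substitutions are written with the parent's base first, then the position counted from 1 at the 5′ end of the pseudogene, then the pseudogene's base. Each stretch is coding sequence in the parent.

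The *Rps7-ps3* pseudogene (chrX:151692535-151693116, minus strand, 582 bases) differed from *Rps7*, a small-subunit protein gene on chromosome 12, by T26G, G48A and G123T, all within its 5′ part, and by nothing over the rest of its length. The first 2 of these lie in the stretch chrX:151693039-151693099.
Rps7-ps3: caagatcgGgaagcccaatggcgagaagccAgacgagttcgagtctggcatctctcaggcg
Rps7: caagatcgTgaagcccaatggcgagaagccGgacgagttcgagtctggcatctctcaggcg
The stretch with G123T is chrX:151692964-151693024.
Rps7-ps3: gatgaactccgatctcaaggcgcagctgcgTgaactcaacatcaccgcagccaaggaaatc
Rps7: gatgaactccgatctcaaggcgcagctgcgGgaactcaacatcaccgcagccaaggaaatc

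The *Rps26-ps1* pseudogene (chr8:108165846-108166196, minus strand, 351 bases) differed from *Rps26*, another small-subunit gene, by C32T and G272A. The second is shown, at chr8:108165895-108165955 in the pseudogene and chr10:128461088-128461148, minus strand, in the parent.
Rps26-ps1: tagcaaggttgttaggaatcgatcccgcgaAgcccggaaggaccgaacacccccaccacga
Rps26: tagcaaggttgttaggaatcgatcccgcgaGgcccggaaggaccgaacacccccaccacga
The *Rpl34-ps1* pseudogene (chr6:71101594-71101947, plus strand, 354 bases) differed from *Rpl34*, a large-subunit gene on chromosome 3, by T132C and C318G. The stretch around T132C is chr6:71101695-71101755 in the pseudogene and chr3:130522703-130522763, minus strand, in the parent.
Rpl34-ps1: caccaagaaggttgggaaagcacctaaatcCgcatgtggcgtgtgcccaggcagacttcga
Rpl34: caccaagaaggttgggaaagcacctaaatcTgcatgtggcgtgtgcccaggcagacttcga

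The *Rpl15* copies show how far a stretch can be shared. *Rpl15-ps3* (chr9:22096903-22097517, minus strand) had the same bases as *Rpl15*, a large-subunit gene on chromosome 14, over all of its 615 bases. *Rpl15-ps6* (chr15:52341013-52341624, minus strand) differed by A156G and C202A, and *Rpl15-ps2* (chr9:71968219-71968831, plus strand) by 8 substitutions, of which A154G gave it the same 61 bases as *Rpl15-ps6* had around A156G.
Rpl15-ps6: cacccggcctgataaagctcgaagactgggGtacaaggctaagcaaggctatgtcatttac
Rpl15-ps2: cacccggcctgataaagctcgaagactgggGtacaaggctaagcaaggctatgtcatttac
Rpl15: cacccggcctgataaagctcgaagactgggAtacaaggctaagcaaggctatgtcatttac
The next difference was found in *Rpl15-ps6* but not in *Rpl15-ps2*, at chr15:52341393-52341453.
Rpl15-ps6: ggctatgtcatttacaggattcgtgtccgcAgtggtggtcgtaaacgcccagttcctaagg
Rpl15: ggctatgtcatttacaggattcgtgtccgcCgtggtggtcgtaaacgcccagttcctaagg

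The pseudogenes were short and close to their parents. All 73 had a single exon, of 311 to 1347 bases with a median of 555, and 70 were at least 95% identical to the parent mRNA, with a median of 99.2%; the 3 others, *Rpl13-ps1*, *Rps7-ps2* and *Rpl18-ps1*, were between 54.2% and 56.0% identical. An open frame at least as long as the parent's coding sequence was kept in 46 of them. *Rps7-ps3* was one, with 194 codons, as many as *Rps7* has. The 10 that were identical to the parent over their whole model were *Rpl15-ps3*, *Rps23-ps1*, *Rpl10a-ps1*, *Rps6-ps4*, *Rpl28-ps1*, *Rpl31-ps8*, *Rps12-ps3*, *Rps16-ps2*, *Rpl27-ps3* and *Rpl36a-ps2*. The pseudogenes lay on 20 chromosomes, with 7 each on chromosomes 8 and X. No other gene was annotated over 30 of them, 20 overlapped an exon of another gene, and 23 lay in introns only. Among these were *Rps26-ps1*, whose 3′ end met the end of an exon of *Wwp2* on the opposite strand without sharing a 51-base window with it, and *Rpl10a-ps1*, which overlapped an exon of *Akr1cl* on the same strand. The libraries did not mark strand, so reads from such a pair cannot be told apart by direction.

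Because the reads were 51 bases long, each pseudogene was cut into every 51-base window and each window was looked for, on either strand, in the annotated transcripts of all other genes of the table. A median of 16.2% of a pseudogene's windows were found in no other gene. No window of its own was left to 19 of the 73, while 12 had more than 50% to themselves, the highest being *Rpsa-ps11* with 81.4%. At least 1 window was shared with the parent in 71, and a pseudogene shared windows with a median of 15 other genes and with up to 83. Among pseudogenes with a mean of at least 1 CPM, those with most sequence of their own were *Rps7-ps2* with 72.8%, *Rps15a-ps4* with 58.2% and *Rps15a-ps6* with 45.5%, while *Rps2-ps10*, *Rpl15-ps3* and *Rps23-ps1* had none. For *Rps7-ps3* the share was 18.6%: 433 of its windows, or 81.4%, were found in *Rps7*, and 331 of them also in *Gm9493*, a gene model with the same sequence there. Paired reads carry a second 51-base end, so a window counts one end only.

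**Figure D1:**
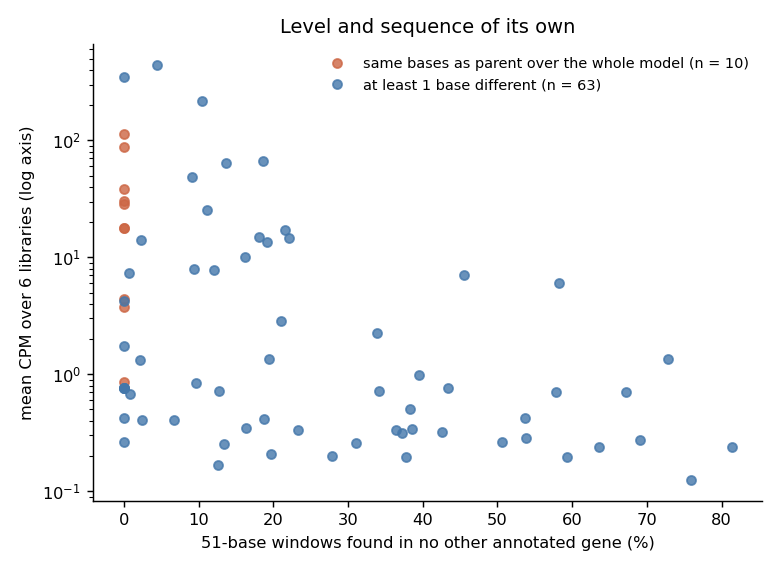
Each point is 1 of the 73 pseudogenes, with the percentage of its 51-base windows found in no other annotated gene on the horizontal axis and its mean CPM over the 6 libraries on a logarithmic vertical axis; orange points are the 10 whose bases are those of the parent throughout. The 4 pseudogenes above 100 CPM have at most 10.5% of windows of their own.

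Levels spanned more than 3 orders of magnitude. The mean over the 6 libraries was between 0.125 CPM for *Rpl13-ps1* and 443 CPM for *Rpl3-ps1*, with a median of 0.842 CPM against 11.2 CPM over all genes tested. There were 4 pseudogenes at 100 CPM or more, 16 between 10 and 100 CPM, 14 between 1 and 10 CPM and 39 below 1 CPM. The 10 highest were *Rpl3-ps1*, *Rps2-ps10*, *Rps2-ps13*, *Rpl15-ps3*, *Rps23-ps1*, *Rps7-ps3*, *Rps13-ps1*, *Rpl15-ps6*, *Rpl10a-ps1* and *Rps6-ps4*. The pseudogenes with the least sequence of their own had the higher levels, with a Spearman's rho of -0.50 between window share and mean CPM over the 73 pseudogenes, which share libraries and reads and are not independent. Together the 73 took between 0.127% and 0.205% of a library's counts, and the 5 highest in each library held between 64.9% and 80.5% of that. The summed pseudogene CPM was 1502, 1293 and 1940 in ControlΔEC and 2184, 1319 and 2015 in Wt1KOΔEC, which overlapped, whereas the 79 cytoplasmic ribosomal protein genes summed to 25983, 21699 and 23909 CPM and to 37546, 31313 and 31979 CPM, which did not.

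The highest pseudogene, *Rpl3-ps1* (chrX:13068810-13070019, plus strand), carried 2 substitutions over 1210 bases relative to *Rpl3*, a large-subunit gene. It was at 410, 369 and 486 CPM in ControlΔEC and at 488, 390 and 515 CPM in Wt1KOΔEC, and the genotypes overlapped. *Rpl3* was at 797, 689 and 705 CPM and at 1202, 1049 and 918 CPM, without overlap. Per kb of length, for which the parent's coding transcript was used, the pseudogene had 349 ± 49.3 CPM (SD, n = 3) in ControlΔEC and *Rpl3* 539 ± 43.3. The pseudogene's share of the counts of both was 36.6% ± 3.73 in ControlΔEC and 30.6% ± 4.67 in Wt1KOΔEC (n = 3 each), which overlapped (exact permutation test over the 6 libraries, two-sided, p = 0.3, where 0.1 is the smallest p that 3 against 3 libraries allow). Only 3 of the 73 pseudogenes had a higher level per kb than their parent in ControlΔEC. They were *Rpl15-ps3*, *Rpl28-ps1* and *Rpl31-ps8*, copies of 615, 414 and 378 bases that are identical to the parent. The parent transcripts used for them were 2336, 3037 and 4122 bases long, so this count depends on the transcript chosen.

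To ask which pseudogenes changed on loss of *Wt1* in ECs, genotypes were compared with edgeR's quasi-likelihood test over all 16296 genes, p-values being adjusted by the Benjamini-Hochberg method. DEG (differentially expressed gene) is used for an absolute Log2FC (log2 fold change, Wt1KOΔEC over ControlΔEC) above 0.58 together with an adjusted p under 0.05. One of the 73 pseudogenes, *Rps7-ps3*, was a DEG and was higher in Wt1KOΔEC, beside 12 DEGs or 0.0736% of all genes. DESeq2 called 3 of the 73 (7 of which it gave no adjusted p) against 4.71% of all genes, and these were *Rps7-ps3*, *Rps26-ps1* and *Rpl34-ps1*. At an unadjusted p under 0.05 with the same fold limit, 5 pseudogenes were higher and 4 lower in Wt1KOΔEC, or 6.85% and 5.48% of the 73 against 4.17% and 5.96% of all genes. In CPM, libraries of the genotypes did not overlap for 17 pseudogenes that were higher and 5 that were lower in Wt1KOΔEC, or 23.3% and 6.85% against 10.3% and 8.97% of all genes. Of the 17, 6 were identical to the parent throughout and 4 were *Rpl35a* copies with equal counts, so that they do not count as separate observations. The unscaled counts of the 4 *Rpl35a* copies did overlap. The count rule was met through ControlΔEC libraries alone by 5 pseudogenes and through Wt1KOΔEC libraries alone by 2, which then had to differ, and these shares are descriptions only.

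Pseudogenes and parents differed in how uniform they were. The median Log2FC of the 73 was 0.28, with a middle 50% from -0.36 to 0.68, and 47 were above 0. All 40 parents were above 0, with a median of 0.48 and a middle 50% from 0.42 to 0.61, and so were all 79 ribosomal protein genes, with a median of 0.50. The median over all genes tested was -0.03, and over the 818 other pseudogenes that met the count rule -0.09, with a middle 50% from -0.71 to 0.44. With library size alone as the scaling, the median of all genes moved by -0.15 and those of the pseudogenes and the ribosomal protein genes were 0.10 and 0.35, with 40 of 73 and 77 of 79 above 0. Among the ribosomal protein genes 1, *Rps29*, was a DEG (80.7, 77.6 and 75.1 CPM against 179, 154 and 168 CPM, Log2FC 1.10 ± 0.14 SE, adjusted p = 0.0445 in edgeR's test), and none of the 40 parents was, although DESeq2 called 12 and 13 of them, or 32.5%, had an unadjusted p under 0.05 with the same fold limit, against the 4.17% of all genes above. A pseudogene's Log2FC was below that of its parent in 45 of 73 cases and above it in 28. *Rn18s* had a Log2FC of 0.87 ± 0.13 SE and did not pass the test (adjusted p = 0.0650). The median Log2FC was 0.64 over the 19 pseudogenes with no window of their own and 0.16 over the 54 with at least 1. The 19 include the 4 *Rpl35a* copies with equal counts and the 10 copies identical to the parent, so they are not separate observations. The median SE over the 73 was 1.18, against 0.16 over the parents and 0.39 over all genes.

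**Figure D2:**
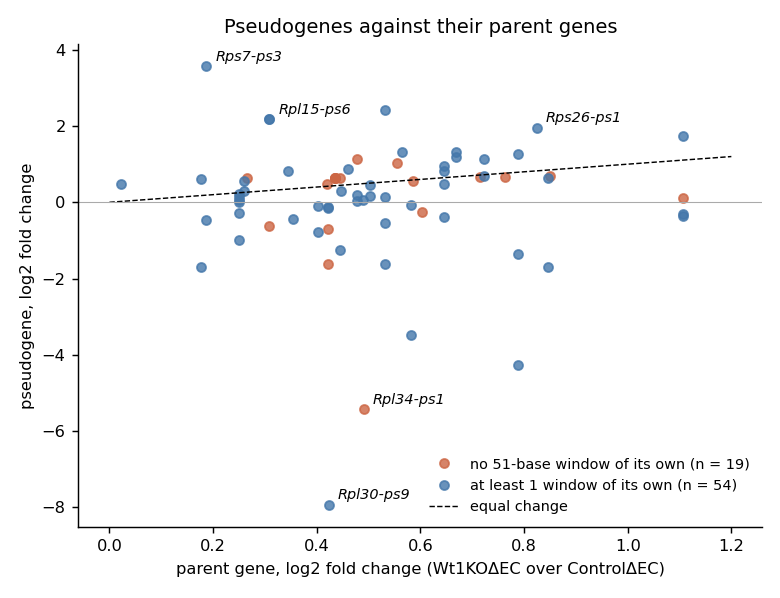
Log2FC (Wt1KOΔEC over ControlΔEC) of each of the 73 pseudogenes on the vertical axis against that of its parent on the horizontal axis, with pseudogenes that had no 51-base window of their own in orange and the others in blue; the dashed line marks equal change. All parents lie between 0.02 and 1.11, while the pseudogenes spread from -7.94 for *Rpl30-ps9*, a fitted value against libraries at 0, to 3.58 for *Rps7-ps3*.

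*Rps7-ps3* was at 8.29, 6.37 and 16.5 CPM in ControlΔEC (371, 314 and 475 counts) and at 113, 91.6 and 166 CPM in Wt1KOΔEC (4403, 3261 and 4184 counts). The lowest Wt1KOΔEC library was thus more than 5 times the highest ControlΔEC library. The group means were 10.4 ± 5.37 CPM and 123 ± 38.1 CPM (SD, n = 3), and the Log2FC was 3.58 ± 0.39 SE (adjusted p = 0.0209 in edgeR's test). The parent, *Rps7*, overlapped between genotypes, at 312, 258 and 354 CPM against 399, 349 and 303 CPM, and did not pass the test (Log2FC 0.19 ± 0.18 SE, adjusted p = 0.747). The pseudogene's share of both genes' counts was 2.59%, 2.41% and 4.45% in ControlΔEC and 22.0%, 20.8% and 35.3% in Wt1KOΔEC, without overlap (exact permutation test, two-sided, p = 0.1, the smallest possible here). Per kb, *Rps7-ps3* went from 17.8 ± 9.22 to 212 ± 65.5 CPM, and *Rps7* from 323 ± 50.3 to 368 CPM.

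Counted as 1 gene, *Rps7* and all its named pseudogenes had a Log2FC of 0.57 and did not pass the test (adjusted p = 0.224). The sum of *Rps7* and *Rps7-ps3* was 318 ± 53.0 CPM in ControlΔEC and 474 ± 35.6 CPM in Wt1KOΔEC (n = 3 each). *Gm9493*, which holds 331 of the same windows, went the other way at 6.12, 3.65 and 14.2 CPM against 2.56, 2.02 and 0 CPM (Log2FC -2.37 ± 1.17 SE, adjusted p = 0.437). Genes around the pseudogene on chromosome X did not pass the test: *Shroom2* had a Log2FC of -0.23 (adjusted p = 0.597), *Gpr143* of -1.41 (adjusted p = 0.631) and *Mageh1* of 0.15 (adjusted p = 0.917). The call on *Rps7-ps3* held in DESeq2 (adjusted p = 8.07e-19) and limma-voom (adjusted p = 0.00691), but only 2 of the 6 fits with a library left out kept it. It was lost without ControlΔEC replicate 1 (adjusted p = 0.114) and without Wt1KOΔEC replicates 1, 2 or 3 (adjusted p = 0.103, 0.0572 and 0.132), although the Log2FC over all 6 such fits stayed between 3.30 and 4.07.

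*Rps26-ps1* was at 3.42, 13.8 and 3.88 CPM in ControlΔEC and at 30.6, 23.6 and 27.8 CPM in Wt1KOΔEC. All Wt1KOΔEC libraries were above all ControlΔEC libraries, and ControlΔEC replicate 2 was the nearest to them. The Log2FC was 1.95 ± 0.51 SE and did not pass edgeR's test (adjusted p = 0.209), while DESeq2 called it (adjusted p = 0.00923). Without ControlΔEC replicate 2 edgeR called it too (Log2FC 2.91, adjusted p = 0.0136). *Rps26* was at 92.2, 79.2 and 116 CPM and at 186, 153 and 169 CPM, which was also without overlap (Log2FC 0.82 ± 0.18 SE, adjusted p = 0.147; DESeq2 adjusted p = 0.00133). The share of *Rps26-ps1* was 3.58%, 14.8% and 3.25% in ControlΔEC against 14.2%, 13.4% and 14.1% in Wt1KOΔEC, so that ControlΔEC replicate 2 was above every Wt1KOΔEC library (exact permutation test, two-sided, p = 0.4). *Wwp2*, which met its 3′ end on the opposite strand and shared no 51-base window with it, was at 70.5, 102 and 74.6 CPM in ControlΔEC and at 55.4, 58.8 and 44.3 CPM in Wt1KOΔEC, without overlap, and did not pass the test (adjusted p = 0.247).

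*Rpl34-ps1* was at 0.112, 12.9 and 11.7 CPM in ControlΔEC and at 0.128, 0.0281 and 0.435 CPM in Wt1KOΔEC. ControlΔEC replicates 2 and 3 stood apart from the other 4 libraries, and the genotypes overlapped because ControlΔEC replicate 1 was as low as Wt1KOΔEC. The Log2FC of -5.42 ± 1.54 SE did not pass edgeR's test (adjusted p = 0.220), and it was called by DESeq2 (adjusted p = 0.00157). *Rpl34* was at 149, 99.7 and 99.8 CPM and at 166, 154 and 169 CPM, so that the parent was lowest in the same 2 libraries in which the pseudogene was high. The sum of both was 124 ± 21.3 CPM in ControlΔEC and 163 ± 8.26 CPM in Wt1KOΔEC (n = 3 each). *Rpl34-ps1* had no window of its own: *Gm10154* held 252 of its windows, or 82.9%, and *Rpl34* 216, or 71.1%.

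**Figure D3:**
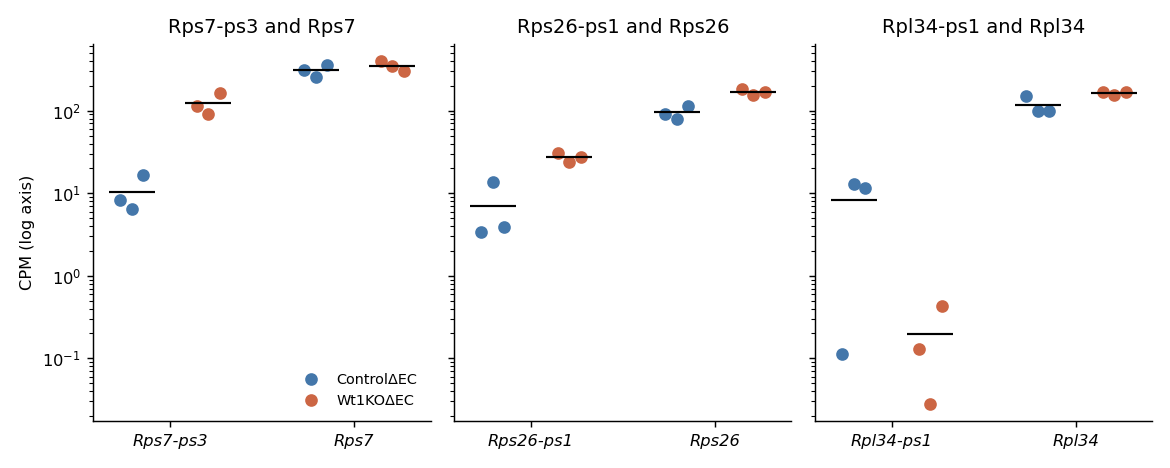
CPM in each library, on a logarithmic axis, of *Rps7-ps3*, *Rps26-ps1* and *Rpl34-ps1* beside their parents, with ControlΔEC in blue, Wt1KOΔEC in orange and a line at each group mean (n = 3). *Rps7-ps3* is separated between genotypes while *Rps7* overlaps, ControlΔEC replicate 2 is the highest control for *Rps26-ps1* at 13.8 CPM, and ControlΔEC replicate 1 lies with the Wt1KOΔEC libraries for *Rpl34-ps1*.

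The *Rpl15* copies were divided differently in different libraries. *Rpl15-ps3*, the exact copy, was at 171, 152 and 87.4 CPM in ControlΔEC and at 103, 85.9 and 80.3 CPM in Wt1KOΔEC. *Rpl15-ps6* had no count in ControlΔEC replicates 1 and 2 and was at 52.9 CPM in replicate 3, against 83.0, 75.5 and 78.2 CPM in Wt1KOΔEC. *Rpl15-ps2* followed it, at 0.201, 0.0608 and 10.8 CPM against 18.4, 13.8 and 17.1 CPM. In ControlΔEC replicates 1 and 2 the counts of the family's pseudogenes thus stood on *Rpl15-ps3* alone, and in the other 4 libraries they were spread over 3 copies. The sum of *Rpl15-ps3* and *Rpl15-ps6* was at 171, 152 and 140 CPM against 186, 161 and 158 CPM, and the genotypes overlapped. In ControlΔEC this sum was steadier than either copy, while in Wt1KOΔEC *Rpl15-ps6* alone varied less than the sum. With *Rpl15-ps2* added it was 158 ± 11.2 CPM in ControlΔEC and 185 ± 16.7 CPM in Wt1KOΔEC (n = 3 each), without overlap.

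None of the *Rpl15* copies passed the test. The Log2FC was -0.61 ± 0.25 SE for *Rpl15-ps3* (adjusted p = 0.341), 2.18 ± 1.69 SE for *Rpl15-ps6* (adjusted p = 0.674) and 2.17 ± 1.34 SE for *Rpl15-ps2* (adjusted p = 0.563). ControlΔEC replicate 3 decided this: without it *Rpl15-ps6* and *Rpl15-ps2* were called as higher in Wt1KOΔEC (adjusted p = 0.000435 and 0.0175). *Rpl15* overlapped between genotypes, at 552, 400 and 371 CPM against 570, 500 and 567 CPM (Log2FC 0.31 ± 0.18 SE, adjusted p = 0.530), and with all pseudogene counts added its Log2FC was 0.29 (adjusted p = 0.518).

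*Rps2* encodes a small-subunit protein, and its copies varied most between libraries of the same genotype. *Rps2-ps13* was at 369, 0.608 and 348 CPM in ControlΔEC and at 575, 1.85 and 0.198 CPM in Wt1KOΔEC. It was thus present in 3 libraries, and in the other 3 at under 2 CPM. *Rps2-ps10*, which shares 727 windows, or 87.7% of its own, with *Rps2-ps13*, was at 177, 416 and 416 CPM and at 231, 191 and 669 CPM. *Rps2-ps6* was at 19.6, 14.5 and 0.520 CPM and at 34.5, 57.9 and 24.3 CPM, and was the only one of these whose genotypes did not overlap (Log2FC 1.74 ± 0.88 SE, adjusted p = 0.449). *Rps2-ps8* was below 2.3 CPM in every library.

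The Log2FC of *Rps2-ps13* was -0.32 ± 2.07 SE (adjusted p = 0.977), and it went to -7.78 when Wt1KOΔEC replicate 1 was left out, without being called (adjusted p = 0.501). That of *Rps2-ps10* was 0.11 ± 0.48 SE (adjusted p = 0.964). *Rps2* was at 690, 595 and 272 CPM in ControlΔEC and at 1088, 1330 and 938 CPM in Wt1KOΔEC, without overlap (Log2FC 1.11 ± 0.31 SE, adjusted p = 0.220; DESeq2 adjusted p = 0.0144). The parent was lowest in ControlΔEC replicate 3, the library in which its pseudogenes held 73.8% of the family's counts, against 15.9% to 45.1% in the other 5 libraries. *Rps2* and these 4 pseudogenes together came to 1256, 1029 and 1039 CPM in ControlΔEC and to 1930, 1581 and 1632 CPM in Wt1KOΔEC, and with all *Rps2* copies counted as 1 gene the Log2FC was 0.63 (adjusted p = 0.175). Within a genotype the highest library exceeded the lowest by 1.22 times for this sum in both genotypes, against 1.83 times in ControlΔEC and 4.19 times in Wt1KOΔEC for *Rps2-ps10* and *Rps2-ps13* together.

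**Figure D4:**
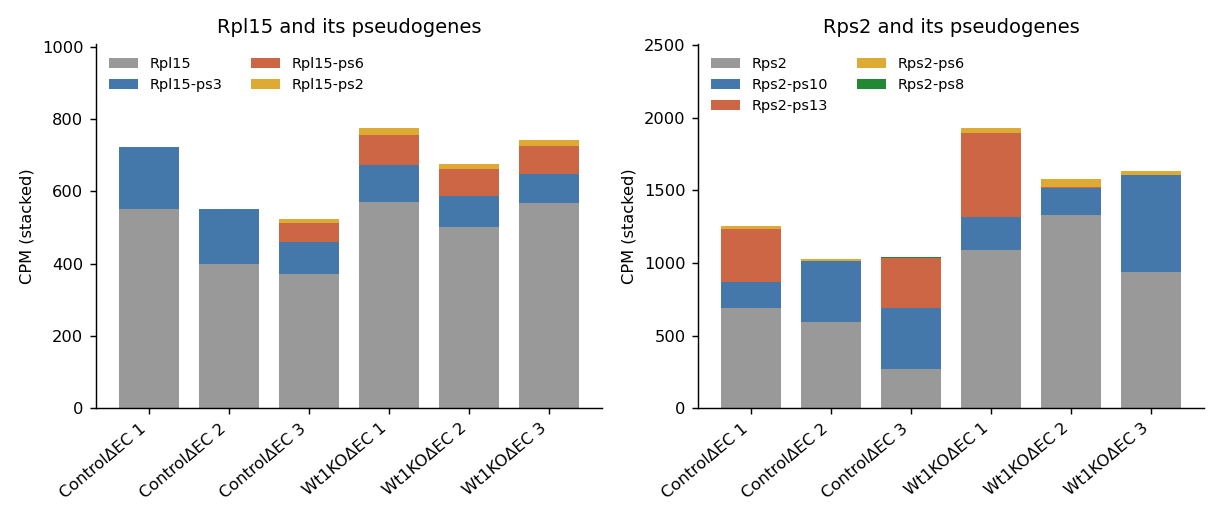
Stacked CPM in each of the 6 libraries of *Rpl15* with *Rpl15-ps3*, *Rpl15-ps6* and *Rpl15-ps2* (left) and of *Rps2* with *Rps2-ps10*, *Rps2-ps13*, *Rps2-ps6* and *Rps2-ps8* (right). The divisions differ between libraries of 1 genotype, as for *Rps2-ps13* at 575 and 0.198 CPM in Wt1KOΔEC replicates 1 and 3, more than the totals do.

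Where the pseudogene had the parent's bases throughout, its share of the pair mostly overlapped between genotypes. This was not particular to such copies. Over all 73 pseudogenes the share did not overlap for 3 that were higher and 11 that were lower in Wt1KOΔEC. A share of a pair exists for pseudogenes with a parent, so no value over all genes stands beside these counts. The parent's counts are part of each share, and all 40 parents had a Log2FC above 0. The 10 copies identical to the parent had a Log2FC between -0.61 and 1.03 with a median of 0.64, 8 of them were above 0, and in 7 the share of the pair overlapped between genotypes. *Rps23-ps1* took 22.7%, 23.6% and 24.9% of the counts it shared with *Rps23* in ControlΔEC and 24.2%, 23.9% and 21.7% in Wt1KOΔEC, while its own level was 71.3 ± 13.1 CPM and 104 ± 11.9 CPM (Log2FC 0.55 ± 0.18 SE against 0.59 for *Rps23*; adjusted p = 0.268, not passing the test). *Rpl28-ps1* was at 18.8, 20.9 and 26.4 CPM and at 44.4, 30.0 and 29.8 CPM, with shares of 12.4%, 15.4% and 16.7% against 13.9%, 14.1% and 13.7%. Both copies overlapped in share and not in level.

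The 3 identical copies whose share did not overlap were *Rpl15-ps3*, *Rps6-ps4* and *Rpl31-ps8*. The share of *Rps6-ps4* was 3.67%, 3.86% and 6.13% in ControlΔEC and 3.01%, 2.39% and 2.39% in Wt1KOΔEC, while *Rps6* went from 661, 630 and 745 CPM to 1121, 928 and 1044 CPM. That of *Rpl31-ps8* was 14.1%, 14.1% and 12.8% against 14.9%, 15.8% and 15.3%. *Rpl10a-ps1*, in an exon of *Akr1cl*, was at 25.5, 23.0 and 42.2 CPM against 56.2, 44.9 and 39.3 CPM, with shares of 5.14%, 5.37% and 7.87% against 8.14%, 8.21% and 7.16%, and both overlapped. Over all 73 pseudogenes the share of the pair did not overlap between genotypes for 14, of which 3 were higher and 11 lower in Wt1KOΔEC. Each of these 14 had p = 0.1 in the exact permutation test, so that none could pass 0.05.

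**Figure D5:**
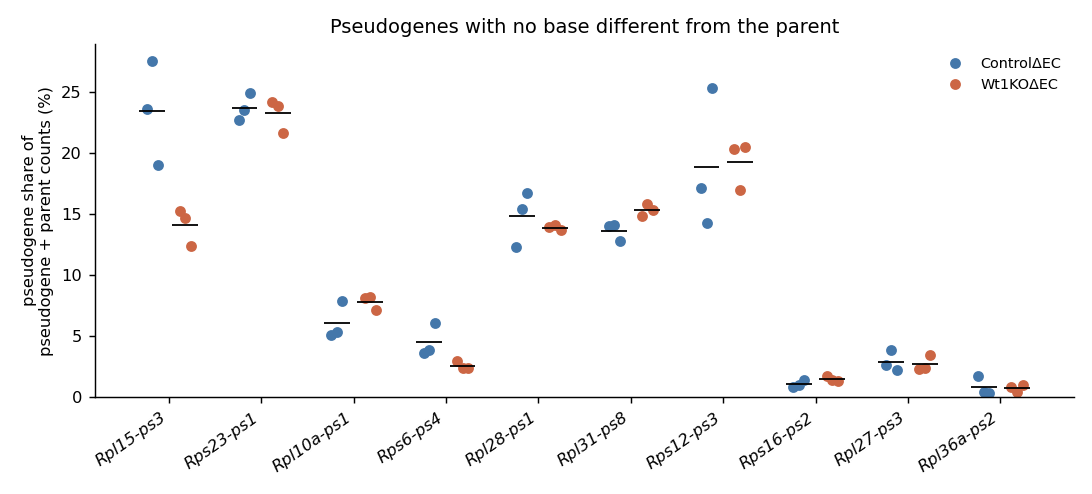
Share of the counts of pseudogene plus parent that was given to the pseudogene, in percent, for the 10 pseudogenes whose bases are those of the parent throughout, with 1 point per library (ControlΔEC blue, Wt1KOΔEC orange) and a line at each group mean (n = 3). Shares range from below 2% for *Rps16-ps2* and *Rpl36a-ps2* to 27.6% for *Rpl15-ps3* in ControlΔEC replicate 2.

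The pseudogenes with a mean of at least 1 CPM that were lower in Wt1KOΔEC without overlap were *Rpl21-ps7* and *Rps27a-ps3*. *Rpl21-ps7*, a copy of a large-subunit gene, was at 5.86, 3.02 and 3.92 CPM in ControlΔEC and at 1.38, 0.646 and 2.18 CPM in Wt1KOΔEC (Log2FC -1.61 ± 0.71 SE, adjusted p = 0.382). *Rps27a-ps3*, a copy of the gene for a fusion of ubiquitin and a small-subunit protein, was at 11.0, 10.1 and 8.22 CPM and at 6.04, 5.20 and 5.98 CPM (Log2FC -0.77 ± 0.34 SE, adjusted p = 0.380). Both parents were higher in Wt1KOΔEC without overlap, with a Log2FC of 0.53 for *Rpl21* (adjusted p = 0.272) and 0.40 for *Rps27a* (adjusted p = 0.385), and none of these 4 differences passed the test. The share of *Rps27a-ps3* was 4.32% ± 0.76 in ControlΔEC and 1.93% ± 0.13 in Wt1KOΔEC (n = 3 each; exact permutation test, two-sided, p = 0.1), and that of *Rpl21-ps7* 1.81% ± 0.60 and 0.41% ± 0.23.

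*Rps13-ps1*, the seventh by level, was at 56.0, 44.8 and 96.5 CPM in ControlΔEC and at 66.5, 56.4 and 65.1 CPM in Wt1KOΔEC, with ControlΔEC replicate 3 above all others (Log2FC -0.07 ± 0.27 SE, adjusted p = 0.959). Its parent *Rps13* was lowest in that same library, at 103, 85.0 and 77.5 CPM against 144, 132 and 122 CPM. The pseudogenes with most sequence of their own were low. *Rps15a-ps4* was at 5.95, 3.83 and 3.33 CPM against 9.09, 6.15 and 7.80 CPM (Log2FC 0.81 ± 0.43 SE, adjusted p = 0.477), and *Rps15a-ps6*, in an intron of *Nudcd3*, at 5.81, 4.54 and 7.28 CPM against 10.4, 8.31 and 6.02 CPM (Log2FC 0.49 ± 0.40 SE, adjusted p = 0.691). Their parent *Rps15a* had a Log2FC of 0.65 ± 0.16 SE (adjusted p = 0.200). *Rps7-ps2*, which at 54.7% identity shares no window with *Rps7*, stayed between 0.405 and 2.71 CPM and overlapped between genotypes (Log2FC -0.46 ± 1.00 SE, adjusted p = 0.917).

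*Rpl35a-ps2*, *Rpl35a-ps3*, *Rpl35a-ps4* and *Rpl35a-ps6*, on 4 chromosomes, had the same count as each other in every library, 28, 28 and 17 in ControlΔEC and 25, 25 and 37 in Wt1KOΔEC. Each differed from *Rpl35a* by 1 base and had no window of its own. These counts overlapped between genotypes, and only the values scaled to CPM did not, by a narrow margin. The named *Rpl35a* pseudogenes together were at 2.50, 2.27 and 2.36 CPM in ControlΔEC and at 2.58, 2.81 and 5.86 CPM in Wt1KOΔEC. The Log2FC of each copy was 0.65 ± 1.14 SE (adjusted p = 0.890 in edgeR's test).

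The X chromosome held 7 of the pseudogenes, including the DEG, and the libraries differed in the sex of the embryos. *Xist*, which is transcribed from the inactive X of female cells, was at 663, 0 and 717 CPM in ControlΔEC and at 314, 3.71 and 492 CPM in Wt1KOΔEC, and the Y-linked gene *Ddx3y* at 0, 74.4 and 0 CPM and at 0, 91.8 and 0 CPM. Replicate 2 of each genotype was thus the male-type library. *Rps7-ps3* was lowest in replicate 2 of each genotype, at 6.37 and 91.6 CPM, and between the other libraries (replicates 1 and 3) it was 8.29 and 16.5 CPM against 113 and 166 CPM, so that it was higher in Wt1KOΔEC in both kinds of library. *Rps2-ps13* was near 0 in both replicates 2 and also in Wt1KOΔEC replicate 3. *Rpl3-ps1* and *Rpl17-ps8* were lowest in replicate 2 of each genotype too, the latter lying between 10.8 and 18.8 CPM over the 6 libraries (Log2FC -0.12 ± 0.29 SE, adjusted p = 0.927). The remaining 3, *Rpl30-ps9*, *Rps24-ps3* and *Rpl3-ps2*, had a mean below 1 CPM. Being lowest in replicate 2 was not particular to X-linked copies. The summed CPM of the 79 cytoplasmic ribosomal protein genes was also lowest there, at 21699 in ControlΔEC and 31313 in Wt1KOΔEC. A part of embryo sex in these levels was not tested.

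Low pseudogenes were measured too coarsely for a fold change. *Rpl30-ps9* was at 0.738, 1.72 and 0 CPM in ControlΔEC and had no count in Wt1KOΔEC, where 3 counts correspond to 0.0768, 0.0843 and 0.119 CPM. Set against the mean of those floors its ControlΔEC mean was at least 8.80 times higher, although ControlΔEC replicate 3 had no count either, and the test was not passed (adjusted p = 0.302). The median Log2FC of the 73 was also 0.28 with this bound in place of the fitted value. In 12 of the 73 at least 1 library had no count. Among those just inside the count rule were *Rpl13-ps1*, with 15, 2 and 10 counts against 1, 0 and 0, and *Rpl3-ps2*, with 5, 0 and 2 against 7, 10 and 14. Just outside it were *Rplp0-ps1*, with 5, 15 and 4 counts against 9, 2 and 3, and *Rpl17-ps9*, with 0, 0 and 20 against 9, 2 and 3. Of the 241 named pseudogenes that missed the rule, 145 had no count in any library and 96 had a count in at least 1.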

How the data were processed

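RNA was measured in 6 libraries of sorted ECs, prepared by the authors with SMART-seq2 and Nextera XT and sequenced as paired 51-base reads without strand or molecular identifiers. The deposited values are expected counts, whole numbers for each gene and not normalized, which the authors made with STAR and RSEM on GENCODE vM27. The submitters' processing notes give STAR 2.7.8a, RSEM 1.3.0 and DESeq2 1.18 and name GRCm38, whereas the paper's methods name GRCm39. RSEM divides a read that matches several genes by an estimate of their abundance, so that counts of near-identical copies depend on one another. Genotype and replicate came from the sample labels. The labels call the libraries biological replicates and do not say whether each came from 1 embryo. The library codes of the genotypes belong to separate number series, and anything those codes mark cannot be told apart from the genotype.

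The tests were run in R 4.3.3, using edgeR 4.0.16 (TMM, quasi-likelihood F test, genes reaching 10 counts in 2 or more libraries), DESeq2 1.42.0 and limma 3.58.1 (voom). The study's methods name DESeq2, which was an alternative here and ran with its own filter. An SE is the size of the Log2FC over the square root of F. Positions, models and windows came from GENCODE vM39 on GRCm39, which holds all 73 pseudogenes, 68 of them in the version of the count table; pseudogenes were aligned to coding transcripts of the parent with edlib 1.3.9.post1. A reading frame may run to the end of a model. The fit was tested on simulated data with known changes, in which the counts of each gene were drawn independently. Reads shared between copies were not simulated, so that test cannot show how sharing affects the calls on pseudogenes. The pseudogenes, gene lists and tests were chosen with earlier results of these data known. Named are DEGs, the 10 highest pseudogenes, up to 5 with the highest and 5 with the lowest Log2FC where the mean reached 1 CPM and the genotypes did not overlap, the 3 with the most and the 3 with the fewest own windows, those at the edge of the count rule, their parents and genes that hold one; *Rpl34-ps1*, *Rpl30-ps9*, the *Rpl35a* copies, *Rpl28-ps1*, *Rpl31-ps8*, *Rpl17-ps8*, *Gm9493*, *Gm10154*, *Wwp2*, *Rn18s* and the neighbours of *Rps7-ps3* were named after their values were seen, and the sums over *Rpl15* and *Rps2* copies were chosen then too. Alternatives were other tests, scalings, filters and call rules, the replicate number as a block, each library left out, pseudogene counts added to the parent, a fit that left out *Rn18s* and the mitochondrial genes, and windows of 36 and 75 bases.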

Additional observations from a re-analysis of the deposited data

How the results depend on the processing

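Against 1 DEG among the 73 pseudogenes, DESeq2 and the fit with no filter on low counts gave 3 each, an unadjusted p gave 9, and leaving out 1 library gave 0 to 3. Against 1 DEG among the 79 ribosomal protein genes, DESeq2 gave 29, no filter 13, at least 10 counts in every library 7, an unadjusted p 30, and library size only and the replicate block 0 each; leaving out any 1 library also gave 0. Against 12 DEGs among all genes, DESeq2 gave 767, no filter 296, at least 10 counts in every library 113, an unadjusted p 1652, the replicate block 5, and leaving out 1 library 2 to 37. The cause of these differences was not tested. The median Log2FC of the pseudogenes lay between 0.17 and 0.61 with 1 library left out, highest without ControlΔEC replicate 3, and between 0.10 and 0.47 under the other alternatives. The count of pseudogenes whose share of the pair did not overlap, 14 here, was 18 to 25 with 1 library left out, where 2 libraries meet 3. The median share of own windows was 10.6% at 36 bases, 24.2% at 75 bases and 15.9% with the whole genome searched as well. Same-numbered libraries of the genotypes had correlations of 0.057, 0.0045 and 0.020 between their deviations from the group means, so the number was not taken as a pairing; with it as a block the count among the pseudogenes was again 1. The median SE of the Log2FC was 1.47 over the 39 pseudogenes below 1 CPM and 0.46 over the 34 others, and it was 0.52 over the 19 with no window of their own and 1.29 over the 54 others. Among the pseudogenes named by rule, the sign of the Log2FC turned under some alternative for 6, none of them called there; over all 73, the count above 0 went from 47 to 40 with library size only. The Log2FC of *Rpl3-ps1* went to -0.011 with library size only. That of *Rps2-ps10* went to -0.042 in limma-voom, -0.045 with library size only and -0.0067 with the replicate block, and ran from -0.68 to 0.42 with 1 library left out. Those of *Rps13-ps1* and *Rps7-ps2* went to 0.051 and 0.046 in limma-voom, and that of *Rps13-ps1* to 0.0053 with the replicate block. With 1 library left out *Rps2-ps13* ran from -7.78 to 0.27, *Rps13-ps1* from -0.28 to 0.32, *Rps6-ps4* from -0.45 to 0.13 and *Rps7-ps2* from -0.92 to 0.19. *Rps29*, a DEG here, was not one with library size only (adjusted p = 0.0736 in edgeR's test), with the replicate block (adjusted p = 0.102) or without any 1 library (adjusted p from 0.0506 to 0.294).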
